A study of Homo sapiens with 2 samples.

Results

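The genes described here are the human replication-dependent histone genes, which encode the linker histone H1 and the core histones H2A, H2B, H3 and H4 that package newly copied DNA. A gene was included when a transcript cluster, the probe set that stands for a transcribed locus on the array, carried only that gene's symbol in the platform table, under its older HIST1H to HIST4H name or its current one, and pseudogenes were left out. This gave 33 genes of 22411 named genes on the array. RefSeq lists 71 protein-coding genes of the family, and the other 38 had no cluster of their own. The samples were NCI-H446 cells, an established line from a small cell lung carcinoma. NCI-H446-MTA1 cells had been stably transfected with a plasmid for overexpression of MTA1, a subunit of the NuRD deacetylase and chromatin remodelling complex, and NCI-H446-NC cells with a control vector. Both were grown in DMEM with fetal bovine serum and antibiotics, and each gave 1 array of biotin-labelled cRNA from total RNA. Whether the stable cells were a clone or a pool, and which promoter drove MTA1, is not given in the sources used. With 1 array per group no difference below has a replicate check or a test, and "higher" and "lower" compare these arrays only.

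Replication-dependent histone genes lie in clusters, mainly on chromosome 6 with smaller groups on chromosome 1, and are transcribed in S phase under NPAT, a substrate of cyclin E and CDK2 that gathers at them in the histone locus body. Their mRNAs lack introns and usually end in a conserved stem-loop in place of a poly(A) tail. The stem-loop is bound by SLBP and the end is cut with the help of the U7 small nuclear ribonucleoprotein. Some members can also make polyadenylated mRNA, and a labelling step that starts from oligo(dT) would favour that form. The labels name a standard Affymetrix cRNA protocol and do not say how cDNA synthesis was primed.

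The promoters of 5 members are printed to show the elements known from these genes beside members at the ends of the range of their type, among genes above the signal floor defined further on: H1-1 and H1-3, the H1 genes furthest higher and furthest lower on the NCI-H446-MTA1 array, H2BC21 and H2AC6, the H2B gene furthest higher and the H2A gene furthest lower, and H3-4, the H3 gene with its own cluster. Each is the 250 bases before the gene's start in RefSeq, build GRCh38.p14, written 5′ to 3′ on the strand of the gene, and lies on chromosome 6 for H1-1, H1-3 and H2AC6 and on chromosome 1 for H2BC21 and H3-4. The positions are chr6:26017788-26018037 on the minus strand for H1-1, chr6:26234988-26235237 on the minus strand for H1-3, chr6:26123922-26124171 on the plus strand for H2AC6, chr1:149886683-149886932 on the minus strand for H2BC21 and chr1:228425361-228425610 on the minus strand for H3-4. Capitals mark 4 motifs searched on both strands: the octamer ATTTGCAT, the CCAAT box, the TATA box TATAAA, and AAACACA, an element known from H1 promoters.
H1-1: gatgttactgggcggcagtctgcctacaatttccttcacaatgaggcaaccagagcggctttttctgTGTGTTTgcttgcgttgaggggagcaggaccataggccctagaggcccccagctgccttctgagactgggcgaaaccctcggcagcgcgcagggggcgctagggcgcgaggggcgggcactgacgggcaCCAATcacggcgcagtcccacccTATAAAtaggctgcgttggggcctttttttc
H1-3: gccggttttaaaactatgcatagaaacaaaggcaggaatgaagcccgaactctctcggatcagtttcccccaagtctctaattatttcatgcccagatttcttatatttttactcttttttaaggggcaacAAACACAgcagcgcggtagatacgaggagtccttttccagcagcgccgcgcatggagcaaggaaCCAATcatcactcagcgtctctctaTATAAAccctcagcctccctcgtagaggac
H2AC6: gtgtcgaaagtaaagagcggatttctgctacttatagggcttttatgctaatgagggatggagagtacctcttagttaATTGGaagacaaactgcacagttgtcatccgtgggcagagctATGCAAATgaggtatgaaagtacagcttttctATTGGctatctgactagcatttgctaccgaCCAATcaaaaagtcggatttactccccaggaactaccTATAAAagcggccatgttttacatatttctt
H2BC21: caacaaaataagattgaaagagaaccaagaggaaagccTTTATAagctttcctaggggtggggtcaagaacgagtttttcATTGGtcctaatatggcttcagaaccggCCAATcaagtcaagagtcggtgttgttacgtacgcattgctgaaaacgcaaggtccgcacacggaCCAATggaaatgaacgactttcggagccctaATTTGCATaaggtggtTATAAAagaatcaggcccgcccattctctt
H3-4: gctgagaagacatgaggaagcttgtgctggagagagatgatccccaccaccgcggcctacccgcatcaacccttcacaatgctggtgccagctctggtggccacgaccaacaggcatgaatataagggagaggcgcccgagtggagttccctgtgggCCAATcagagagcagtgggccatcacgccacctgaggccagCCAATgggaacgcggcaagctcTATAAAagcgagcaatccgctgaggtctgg
The element AAACACA stood in the H1-1 and H1-3 windows, and the octamer in those of H2AC6 and H2BC21.

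RefSeq promoters were found for 31 of the 33 members. The octamer, a binding site for OCT1 known from H2B promoters, was in the window of 11 of 15 H2B members, 6 of 8 H2A members and 0 of 6 H1 members, against 1.63% of 35116 promoters of all genes. AAACACA was in 6 of 6 H1 members and in 0 of 8 H2A and 0 of 15 H2B members, against 4.82% of all promoters. CCAAT was in 30 of the 31 members, or 96.8%, against 32.0% of all promoters, and TATAAA was in 21, or 67.7%, against 10.7%. Some H2A and H2B neighbours share 1 stretch between their starts, so their windows overlap and are not separate instances. Among the 13 H2B members above the signal floor defined below, the 9 with the octamer had a median log2 difference, NCI-H446-MTA1 minus NCI-H446-NC, of -0.01 and a range of -0.27 to 0.46. The 4 without it had a median of 0.07 and a range of 0.02 to 0.13. These letters are a description of the windows and do not show binding.

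The MTA1 gene itself had a log2 signal of 9.82 on the NCI-H446-MTA1 array and 7.31 on the NCI-H446-NC array, 5.71-fold higher, as the labels say. Across all transcript clusters the median log2 signal was 3.68 in NCI-H446-MTA1 and 3.67 in NCI-H446-NC. A gene was kept when the higher of its values reached the floor of 3.62, the median signal of all clusters, which left 14432 genes. On average the spiked hybridisation controls, the transcripts bioB, bioC, bioD and cre, read 0.24 higher in NCI-H446-MTA1 on the log2 scale, while the median of kept genes differed by -0.01. The share of each difference below that follows this gap was not tested. If the controls were set level, every difference would move down by 0.24, so a difference between 0 and 0.24 would become lower. Of the 6 neuroendocrine markers with their own cluster, INSM1 and UCHL1 reached the floor, and CHGA, SYP, NCAM1 and DLL3 did not. The 6 lay between 3.30 and 5.21 in NCI-H446-MTA1 and between 3.29 and 5.30 in NCI-H446-NC, so most of these defining markers of small cell lung carcinoma did not reach the floor on either array. Of 5 markers of the non-neuroendocrine form, 4 reached the floor (YAP1, REST, MYC and VIM) and POU2F3 did not, with highest signals of 14.64 in NCI-H446-MTA1 and 14.31 in NCI-H446-NC. Fibroblast markers reached the floor in 2 of 5 cases, with a highest signal of 4.03 in NCI-H446-MTA1 and 3.93 in NCI-H446-NC, and leukocyte markers in 1 of 4, with a highest signal of 4.04 in NCI-H446-MTA1 and 4.01 in NCI-H446-NC.

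The histone genes lay on both sides of 0, with no difference past 1.5-fold in the values as deposited. Of the 33 members, 27 reached the floor, and 6 (H1-6, H2AC1, H2AC14, H2BC1, H2BC6 and H4C7) lay below it on both arrays. Among the 27, 14 were higher and 13 lower in NCI-H446-MTA1, with a median log2 difference of 0.01, quartiles of -0.18 and 0.15 and a range of -0.53 to 0.56. With the hybridisation controls set level the split was 3 higher and 24 lower, or 88.9% lower, and 91.2% of the 14812 genes then kept were lower. All 14432 kept genes had a median of -0.01 and quartiles of -0.13 and 0.10, and 53.6% of them were lower as deposited. A difference of at least 1.3-fold was seen for 2 members that were higher, H1-1 and H2BC21, and for 1 that was lower, H3-4. Among all kept genes 4.39% were that far higher and 4.46% that far lower, so the members' counts of 2 and 1 in 27 are near the background. With the hybridisation controls set level 0 members were 1.3-fold higher, against 1.21% of kept genes, and 9 were 1.3-fold lower, or 33.3%, against 23.9%. In that setting 1 member, H3-4, was 1.5-fold lower, against 5.38% of kept genes. In the values as deposited no member reached 1.5-fold, which 1.45% of kept genes did upward and 1.73% downward, or 2-fold, which 0.291% did upward and 0.333% downward. The log2 difference was within 0.1 for 9 of the 27 members and within 0.3 for 24 of them, against 44.8% and 85.8% of all kept genes. In RNA from bulk cells, the share of cells in S phase and the histone mRNA per cell cannot be told apart.

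**Figure D1:**
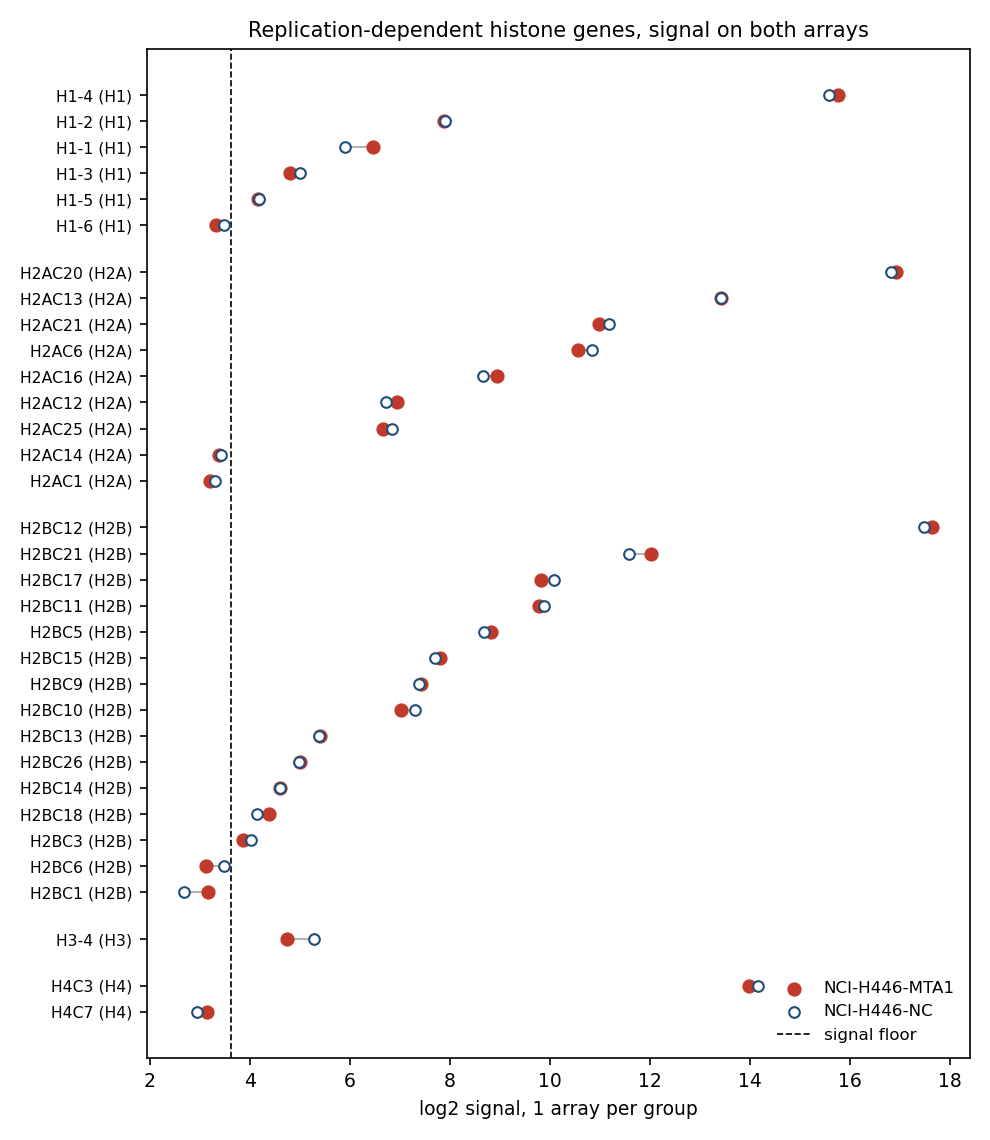
Log2 signal (horizontal axis) of each of the 33 histone genes, grouped by type and ordered by signal, in NCI-H446-MTA1 (filled red points) and NCI-H446-NC (open blue points), 1 array per group, with the signal floor of 3.62 as a dashed line. The 2 points of most genes nearly coincide, and the widest gaps among genes above the floor belong to H1-1, H3-4 and H2BC21.

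The signals spanned nearly the whole range of the array, from 3.13 to 17.64 in NCI-H446-MTA1 and from 2.69 to 17.48 in NCI-H446-NC. They cannot be ordered between genes as RNA amounts, because probe sets differ in how strongly they respond and the values are not per length. Values of H2AC20 and H2BC12 exceed 16, the log2 limit of a 16-bit scanner, as did 829 of all 70523 features, so the values have passed through a further step, which no source used here gives.

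The linker histone H1 binds where DNA enters and leaves the nucleosome and helps to fold the chromatin fibre. All 6 of its replication-dependent genes had a cluster of their own, and 5 reached the floor, with 2 higher and 3 lower in NCI-H446-MTA1 and a median log2 difference of -0.01. H1-1, a somatic H1 subtype, had a log2 signal of 6.46 in NCI-H446-MTA1 and 5.90 in NCI-H446-NC. It was 1.47-fold higher, a log2 difference of 0.56, the largest upward difference among members above the floor. Repeating quantile normalisation made this 0.64 and loess made it 0.60, past 1.5-fold in both cases, and setting the hybridisation controls level made it 0.32, below 1.3-fold. H1-4, the subtype found in most somatic cells, had 15.75 in NCI-H446-MTA1 and 15.59 in NCI-H446-NC, 0.16 higher. H1-3 had 4.79 in NCI-H446-MTA1 and 5.00 in NCI-H446-NC, 0.20 lower. Apart from H1-1, the H1 genes above the floor differed by at most 0.20 in either direction. H1-2, which can also make polyadenylated mRNA, had 7.88 in NCI-H446-MTA1 and 7.89 in NCI-H446-NC. Its log2 difference of -0.01 turned to 0.03 under quantile normalisation and under loess. H1-5 had 4.16 in NCI-H446-MTA1 and 4.19 in NCI-H446-NC.

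H2A forms a dimer with H2B, and 9 of its 17 genes had a cluster of their own. The 7 above the floor were 4 higher and 3 lower, with a median of 0.01. H2AC16 had a log2 signal of 8.93 in NCI-H446-MTA1 and 8.66 in NCI-H446-NC, 1.21-fold higher. H2AC6, which can make polyadenylated mRNA, lay as far on the other side, with 10.57 in NCI-H446-MTA1 and 10.85 in NCI-H446-NC, 1.21-fold lower. H2AC12, in the array's naming HIST1H2AH, had 6.94 in NCI-H446-MTA1 and 6.72 in NCI-H446-NC. H2AC20, a gene of the chromosome 1 group, had 16.92 in NCI-H446-MTA1 and 16.82 in NCI-H446-NC. The neighbouring H2AC21 was lower, with 10.98 in NCI-H446-MTA1 and 11.17 in NCI-H446-NC. H2AC25, of a further chromosome 1 group, was lower by a like amount, with 6.66 in NCI-H446-MTA1 and 6.84 in NCI-H446-NC. H2AC13 had 13.43 in NCI-H446-MTA1 and 13.42 in NCI-H446-NC, and its log2 difference of 0.01 became -0.03 when quantile normalisation was repeated. Below the floor, H2AC14 had 3.39 in NCI-H446-MTA1 and 3.42 in NCI-H446-NC. In the values as deposited no H2A gene differed by 1.3-fold. H2AC6, H2AC21 and H2AC25 did so with the hybridisation controls set level, at -0.52, -0.43 and -0.43.

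H2B, the partner of H2A, was the best covered of the core histones, with 15 of 18 genes measured and 13 above the floor. Of these 8 were higher and 5 lower, with a median of 0.03. H2BC21, an H2B gene known to make polyadenylated mRNA as well, had 12.03 in NCI-H446-MTA1 and 11.57 in NCI-H446-NC. It was 1.37-fold higher, a log2 difference of 0.46, the only H2B gene above the floor past 1.3-fold. Its difference was 0.21 with the hybridisation controls set level, below 1.3-fold, and H2BC3, H2BC10 and H2BC17 were 1.3-fold lower, at -0.40, -0.51 and -0.51. H2BC18 had 4.38 in NCI-H446-MTA1 and 4.14 in NCI-H446-NC, 0.24 higher. H2BC12 had 17.64 in NCI-H446-MTA1 and 17.48 in NCI-H446-NC, 0.16 higher. Both turned to the lower side, at -0.01 and -0.08, with the hybridisation controls set level. H2BC17 was lower, with 9.81 in NCI-H446-MTA1 and 10.08 in NCI-H446-NC, and H2BC10 was lower too, with 7.03 in NCI-H446-MTA1 and 7.29 in NCI-H446-NC. H2BC3, close to the floor, had 3.87 in NCI-H446-MTA1 and 4.03 in NCI-H446-NC. H2BC5 had 8.82 in NCI-H446-MTA1 and 8.69 in NCI-H446-NC. The other 6 H2B genes above the floor (H2BC9, H2BC11, H2BC13, H2BC14, H2BC15 and H2BC26, listed after their values were seen) differed by between -0.10 and 0.10. H2BC6, below the floor, had 3.13 in NCI-H446-MTA1 and 3.48 in NCI-H446-NC. H2BC11 was the only member with more than 1 cluster, at 9.78 in NCI-H446-MTA1 and 9.88 in NCI-H446-NC for one and 9.39 in both for the other, so probe choice moved its difference between -0.10 and 0.00. Over 292 genes with several clusters the difference varied between clusters of a gene with a pooled SD of 0.13, or 0.26 over 168 genes once clusters on haplotype contigs were dropped. Of the 27 kept members, 17 differed by less than 0.2, or 63.0%, against 72.1% of all kept genes.

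H3 and H4, whose genes are near copies of each other, were almost unmeasured gene by gene, with 1 of 15 H3 genes and 2 of 15 H4 genes having their own cluster. H3-4, an H3 gene known for expression in testis, had a log2 signal of 4.75 in NCI-H446-MTA1 and 5.28 in NCI-H446-NC. It was 1.45-fold lower, a log2 difference of -0.53, the furthest lower of the members above the floor. H4C3 had 13.97 in NCI-H446-MTA1 and 14.16 in NCI-H446-NC, 0.18 lower. H4C7, which encodes a divergent H4, was below the floor with 3.15 in NCI-H446-MTA1 and 2.93 in NCI-H446-NC.

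**Figure D2:**
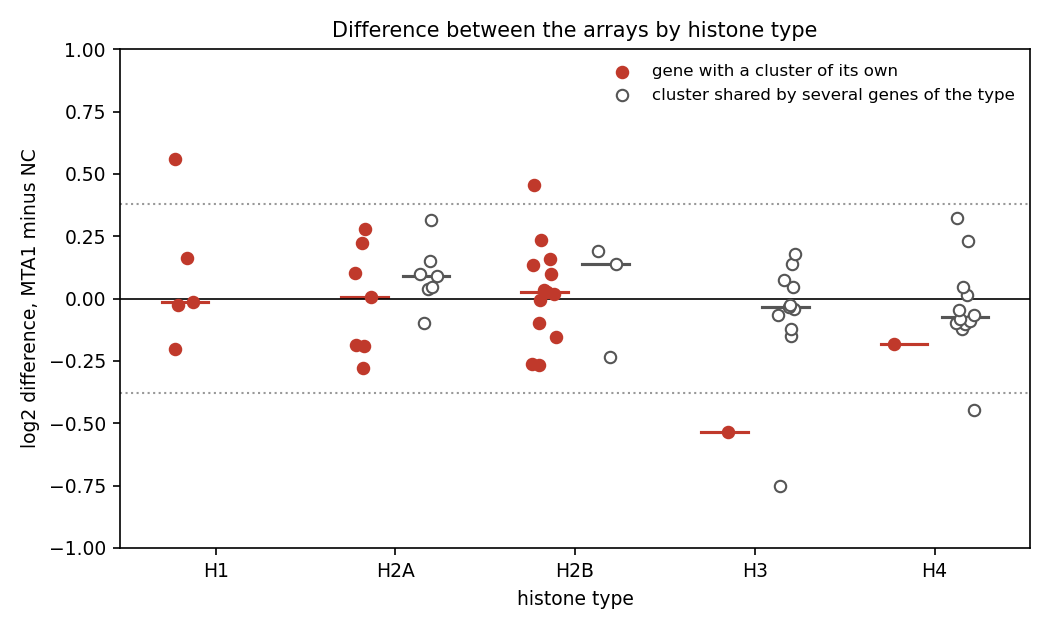
Log2 difference, NCI-H446-MTA1 minus NCI-H446-NC (vertical axis), for each histone type, with genes that have a cluster of their own as filled red points and clusters listing several genes of a type as open points. Short bars are medians, dotted lines mark 1.3-fold, and genes and clusters below the signal floor are not shown. H1, H2A and H2B genes spread around 0 with medians of -0.01, 0.01 and 0.03, and the lowest point is a shared H3 cluster at -0.75. With the hybridisation controls set level every point would lie 0.24 lower.

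The remaining signal of the family came from 35 clusters that list several genes of 1 type and were kept apart, since they name no single gene. Of all kept genes 46.4% were higher and 53.6% lower. The 7 H2A clusters were 6 higher and 1 lower with a median of 0.09. The 3 H2B clusters were 2 higher and 1 lower with a median of 0.14. Of the 12 H3 clusters, 11 reached the floor, 4 higher and 7 lower, with a median of -0.03. Of the 13 H4 clusters, 12 reached the floor, 4 higher and 8 lower, with a median of -0.07. Thus the medians of H3 and H4 lay just below 0 and those of H2A and H2B just above it, and all 4 lie below 0 with the hybridisation controls set level. The clusters of 1 type did not give a single value. The same 10 H3 genes were listed by 8 kept clusters, which differed between -0.75 and 0.18 with an SD of 0.29. The lowest, with 4.51 in NCI-H446-MTA1 and 5.26 in NCI-H446-NC, was 1.68-fold lower. The H3 cluster that narrowly missed the floor, which also lists 10 H3 genes, lay on the other side. It had 3.61 in NCI-H446-MTA1 and 2.98 in NCI-H446-NC, 1.55-fold higher. The same 14 H4 genes were listed by 12 kept clusters, between -0.45 and 0.32 with an SD of 0.19. A further 3 clusters that mixed histone types or listed other genes as well, and 3 clusters of pseudogenes, were not counted. Which of the listed genes each cluster measures cannot be told apart here.

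Many H2A and H2B genes are neighbours that start back to back and share a promoter region. Among the 31 members with a RefSeq promoter there were 5 such pairs, with between 215 and 245 bases between the starts. H2AC12 and H4C3 had no promoter entry, so any pair that includes them was not counted. H2BC21 and H2AC20, 236 bases apart, were both higher, by 0.46 and 0.10, and stood at 0.21 and -0.14 with the hybridisation controls set level. H2AC25 and H2BC26, 230 bases apart, differed by -0.19 and 0.02. H2BC13 and H2AC13 differed by 0.03 and 0.01, and H2AC14, below the floor, and H2BC14 by -0.03 and -0.01. Both genes of the pair H2AC1 and H2BC1 were below the floor.

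**Figure D3:**
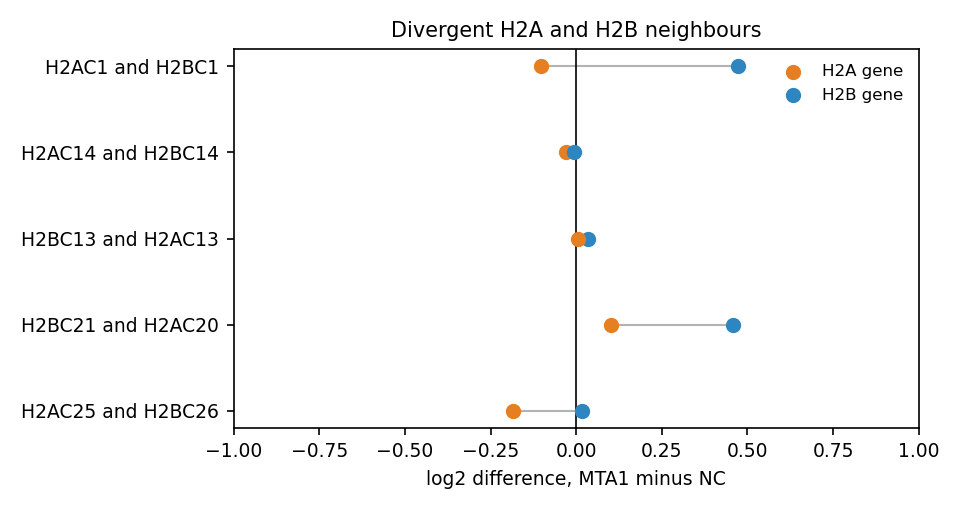
Log2 difference, NCI-H446-MTA1 minus NCI-H446-NC (horizontal axis), of the H2A gene (orange) and the H2B gene (blue) in each of 5 back-to-back pairs, joined by a line. H2BC21 and H2AC20 are both on the higher side in the values as deposited, and the widest line, H2AC1 and H2BC1, joins genes that are below the signal floor. With the hybridisation controls set level every point would lie 0.24 further left.

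Grouped by their order on the chromosomes, the members formed 5 stretches. On chromosome 1, the 4 genes from H2BC18 to H2AC21 had a median of 0.17 with 3 higher, and the 3 from H3-4 to H2BC26 a median of -0.19 with 2 lower. On chromosome 6, 10 of the 15 genes from H2AC1 to H2BC10 reached the floor, with 4 higher, 6 lower and a median of -0.08. The 3 genes from H2BC11 to H2AC12 had a median of 0.16. The 7 kept genes of the 8 from H2BC13 to H2BC17 had a median of 0.01. No stretch lay wholly on one side. The medians above 0 all turn when the hybridisation controls are set level.

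Members known to make polyadenylated mRNA were set beside the rest, because the priming of the labelling is not stated. Of the 6 on that list 5 were measured (H1-2, H2AC6, H2BC5, H2BC12 and H2BC21), and all reached the floor. There were 3 higher and 2 lower, with a median of 0.13, against 11 higher and 11 lower with a median of -0.0011 among the other 22 kept members. With the controls set level the polyadenylated list had a median of -0.11. The other 22 move down by the same 0.24, so the gap between the medians stays as it was. The larger differences of the family are not confined to it, since H1-1 and H3-4 are not on the list. Genes known for expression in testis were H1-6, H2AC1, H2BC1 and H3-4. The first had 3.31 in NCI-H446-MTA1 and 3.48 in NCI-H446-NC, H2AC1 had 3.19 in NCI-H446-MTA1 and 3.30 in NCI-H446-NC, and H2BC1 had 3.16 in NCI-H446-MTA1 and 2.69 in NCI-H446-NC. Only H3-4 of the 4 was above the floor, and so the testis genes as a group gave little signal in these cells.

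Other genes of histone supply are given for comparison, and differences between the lists and the members were not tested. Many replication-independent variants are also made outside S phase, and 12 of the 20 listed had a cluster of their own. Of the 8 above the floor 2 were higher and 6 lower, or 75%, against 53.6% of all kept genes, with a median of -0.19. This became 1 higher and 7 lower with the hybridisation controls set level, when 91.2% of all genes then kept were lower. H3-5, an H3.3-like gene, had 5.16 in NCI-H446-MTA1 and 5.82 in NCI-H446-NC, 1.58-fold lower. H2AZ2, one of the H2A.Z genes, had 10.05 in NCI-H446-MTA1 and 10.38 in NCI-H446-NC, 1.26-fold lower. The other H2A.Z gene, H2AZ1, had 10.90 in NCI-H446-MTA1 and 10.65 in NCI-H446-NC, 1.19-fold higher. H1-10 had 8.68 in NCI-H446-MTA1 and 8.92 in NCI-H446-NC. H2AX, the variant that is phosphorylated at broken DNA, had 8.95 in NCI-H446-MTA1 and 9.16 in NCI-H446-NC. CENPA, the centromeric H3, had 7.40 in NCI-H446-MTA1 and 7.56 in NCI-H446-NC.

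The 25 measured genes of stem-loop processing and the histone locus body, of 27 listed, all reached the floor, with 6 higher and 19 lower and a median of -0.08. Among all kept genes 53.6% were lower. CASP8AP2, the locus body factor also called FLASH, had 9.56 in NCI-H446-MTA1 and 9.81 in NCI-H446-NC, 1.19-fold lower. LSM11, a part of the U7 particle, had 6.05 in NCI-H446-MTA1 and 6.26 in NCI-H446-NC. ZNF473, which binds that particle, had 4.67 in NCI-H446-MTA1 and 4.85 in NCI-H446-NC. CPSF3, the nuclease that cuts the histone transcript, had 9.59 in NCI-H446-MTA1 and 9.77 in NCI-H446-NC. NCBP1, of the cap-binding complex, had 11.21 in NCI-H446-MTA1 and 11.42 in NCI-H446-NC. The list also held SLIRP, with 13.77 in NCI-H446-MTA1 and 14.02 in NCI-H446-NC, which is known as a mitochondrial RNA-binding protein and not as a factor of histone mRNA. NPAT, named like SLBP after its values were seen, had 9.10 in NCI-H446-MTA1 and 9.21 in NCI-H446-NC. SLBP had 8.94 in NCI-H446-MTA1 and 8.91 in NCI-H446-NC. No gene of the list reached 1.3-fold as deposited, and 8 were 1.3-fold lower with the hybridisation controls set level, when all 25 were lower. Of all genes kept in that setting, 91.2% were lower and 23.9% were 1.3-fold lower.

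The 24 measured chaperones and import factors, of 26 listed, likewise all reached the floor, with 5 higher and 19 lower and a median of -0.06. The share lower was 79.2%, against 53.6% of all kept genes. NASP, which keeps a store of H3 and H4, had 10.74 in NCI-H446-MTA1 and 11.01 in NCI-H446-NC, 1.20-fold lower. SSRP1, a subunit of FACT, was lower by a like amount with 12.81 in NCI-H446-MTA1 and 13.07 in NCI-H446-NC. HJURP, the chaperone of CENPA, had 9.56 in NCI-H446-MTA1 and 9.81 in NCI-H446-NC. ANP32E, a chaperone of H2A.Z, had 10.27 in NCI-H446-MTA1 and 10.47 in NCI-H446-NC. CHAF1A and CHAF1B, subunits of CAF-1, which deposits H3 and H4 behind the replication fork, differed by -0.20 and -0.16. No gene of this list reached 1.3-fold as deposited either, and 6 were 1.3-fold lower with the hybridisation controls set level, when all 24 were lower. The shares of all genes then kept were 23.9% for 1.3-fold lower and 91.2% for lower.

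Since histone mRNA is tied to DNA synthesis, S phase genes were set beside the members. Of 32 listed genes 30 were measured and kept, with 7 higher and 23 lower and a median of -0.12. The share lower was 76.7%, against 53.6% of all kept genes. The 6 furthest from 0 were all lower. MCM10, an origin firing factor, had 8.84 in NCI-H446-MTA1 and 9.47 in NCI-H446-NC, 1.54-fold lower. GINS1, of the replicative helicase, had 8.23 in NCI-H446-MTA1 and 8.78 in NCI-H446-NC, and the transcription factor E2F2 had 4.56 in NCI-H446-MTA1 and 5.05 in NCI-H446-NC. POLA1, CDC6 and PRIM1 differed by -0.36, -0.32 and -0.31. At least 1.3-fold lower were 3 of the 30 S phase genes, and the same held for 1 of the 27 histone members and 4.46% of all kept genes. These counts became 13 of the 30 and 9 of the 27 with the hybridisation controls set level, beside 23.9% of all genes then kept. The members had a median of 0.01 where the S phase genes had -0.12. No histone member is on the S phase list, and the difference between the medians was not tested. SLBP is on both the S phase list and the stem-loop list and is counted in each.

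**Figure D4:**
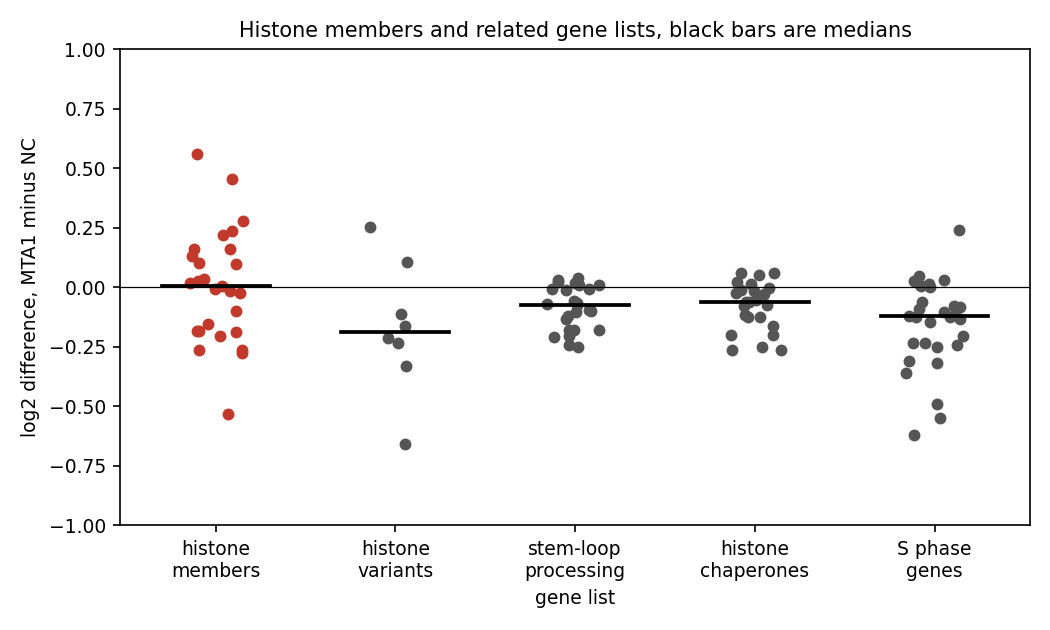
Log2 difference, NCI-H446-MTA1 minus NCI-H446-NC (vertical axis), of the 27 kept histone genes (red), 8 histone variants, 25 genes of stem-loop processing and the histone locus body, 24 histone chaperones and import factors and 30 S phase genes, with medians as black bars. The medians are 0.01, -0.19, -0.08, -0.06 and -0.12, so the other lists sit slightly lower than the histone genes. With the hybridisation controls set level every point would lie 0.24 lower.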

How the data were processed

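Each group had 1 Affymetrix array. The authors used RMA, as the submitters' processing notes state, and deposited log2 signals. The sources used here do not give the software, its version, the summarisation level, any further step or the array's genome build. Depth has no meaning for arrays, and their number, 1 per group, limits the precision. Clusters were named by the platform table and updated to RefSeq symbols, and 2 members were matched through an older symbol. Of 67528 transcript clusters, 23781 listed 1 symbol, 1543 several and 42204 none. Each gene was represented by its brightest cluster with 1 symbol. Values were used as deposited, with no further normalisation, and genes were kept if the higher value reached 3.62, the median over clusters of the mean of both arrays. The difference is NCI-H446-MTA1 minus NCI-H446-NC, with no test. The members, lists, named genes and alternatives were chosen with earlier results of these data known. The named genes were MTA1, for each histone type the 3 brightest and the 3 furthest higher and lower, every member of the polyadenylated and testis lists, and the 6 furthest from 0 of every other list. H2AC14, H2BC6 and others noted in the text were named after their values were seen. The 1.3-fold threshold, which replaced a slightly lower one that named the same 3 members, and the shared clusters were added after the data were seen. Alternatives changed the scaling, the floor and the cluster per gene. The steps were tested on simulated data. Python 3.11.15, numpy 2.4.6, pandas 2.3.3, statsmodels 0.14.6 and matplotlib 3.10.9 were used.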

Additional observations from a re-analysis of the deposited data

How the results depend on the processing

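Scaling to the hybridisation controls moved every difference by the same amount. It took the median log2 difference to -0.24 for all members, -0.26 for H1, -0.24 for H2A and -0.22 for H2B. The H3 value, from H3-4 alone, moved to -0.78, and the H4 value, from H4C3 alone, to -0.43. The stem-loop list moved to -0.32, the chaperones to -0.31, the variants to -0.43, the S phase genes to -0.37 and the polyadenylated list to -0.11. Under it 0 members were at least 1.3-fold higher, 9 at least 1.3-fold lower and 1 at least 1.5-fold lower, beside 1.21%, 23.9% and 5.38% of the genes then kept. The signs of 8 named members turned (H1-4, H2AC12, H2AC13, H2AC20, H2BC5, H2BC12, H2BC18 and H4C7). Quantile normalisation and loess each put 1 member past 1.5-fold higher, H1-1. With no floor the H4 median was 0.016. With a floor at the 75th percentile, a log2 signal of 5.67, the H1 median was 0.16, 0 members were at least 1.3-fold lower, and H3 gave no value because H3-4 lay below it. Counting the 33 kept shared clusters as members beside the 27, chosen after seeing the data, gave an H3 median of -0.038. In that set 3 were at least 1.3-fold lower and 1 at least 1.5-fold lower, near the 4.46% and 1.73% of all kept genes. Setting the median gene level, requiring both arrays to reach the floor, averaging clusters and using the main chromosomes only changed no median beyond the spread and no count by over 1.5 times. No paired analysis was possible because each group had 1 array and the labels give no replicate numbers.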
